A study of Rattus norvegicus with 20 samples.

Results

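The core circadian clock loop was read in rat liver through 10 genes, Bmal1, Npas2, Clock, Nr1d1, Nr1d2, Per1, Per2, Per3, Cry1 and Cry2. Its members were all probe sets that the array annotation maps to exactly 1 of these symbols, which gave 18 of the 31042 probe sets tested and all 10 genes. The liver came from 20 male Harlan Sprague-Dawley rats gavaged with corn oil that held isodecyl diphenyl phosphate (IDDP), an organophosphate flame retardant and plasticiser, or with the corn oil alone. Each rat was given 4 daily doses, and the left liver lobe was taken on day 5. The vehicle group had 5 rats, and the doses of 66, 132, 263.6, 527.1 and 1054.2 mg/kg had 3 rats each. The lowest dose was 0.169 mmol/kg and the highest 2.7 mmol/kg. No group carried an engineered allele in the labels. The sources used here give neither the age of the rats nor the hour at which tissue was taken. Levels are log2 intensities after robust multi-array averaging (RMA), so a change of 1 is a doubling. Probe sets are called brighter or dim by intensity, which is not read as the relative amount of RNA of different genes.

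In mammals, BMAL1 pairs with CLOCK, or with its relative NPAS2, and the pair binds E-box sequences and switches on the Per, Cry and Nr1d genes. PER and CRY proteins accumulate and block that pair, while the nuclear receptors REV-ERBalpha and REV-ERBbeta, encoded by Nr1d1 and Nr1d2, bind RORE sequences and repress Bmal1 and Npas2. In liver most of these transcripts cycle over the day, with Bmal1 and Npas2 high when Nr1d1 and Dbp are low, and the timing follows both the brain clock and meals.

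At 1054.2 mg/kg the activators Bmal1 and Npas2 were lower than in controls, and the REV-ERB genes Nr1d1 and Nr1d2, Per2, Per3 and Cry2 were higher by at least 1 probe set each. Clock, Per1 and Cry1 did not pass at this dose. Of the 18 probe sets, 6 were higher, 2 were lower and 10 did not pass limma's test with Benjamini-Hochberg adjustment over all probe sets at 0.05. Over all probe sets tested, 3.30% passed at this dose, 1.86% higher and 1.44% lower. The median log2 change was 0.07 over the 18 probe sets and -0.01 over all probe sets.

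**Figure D1:**
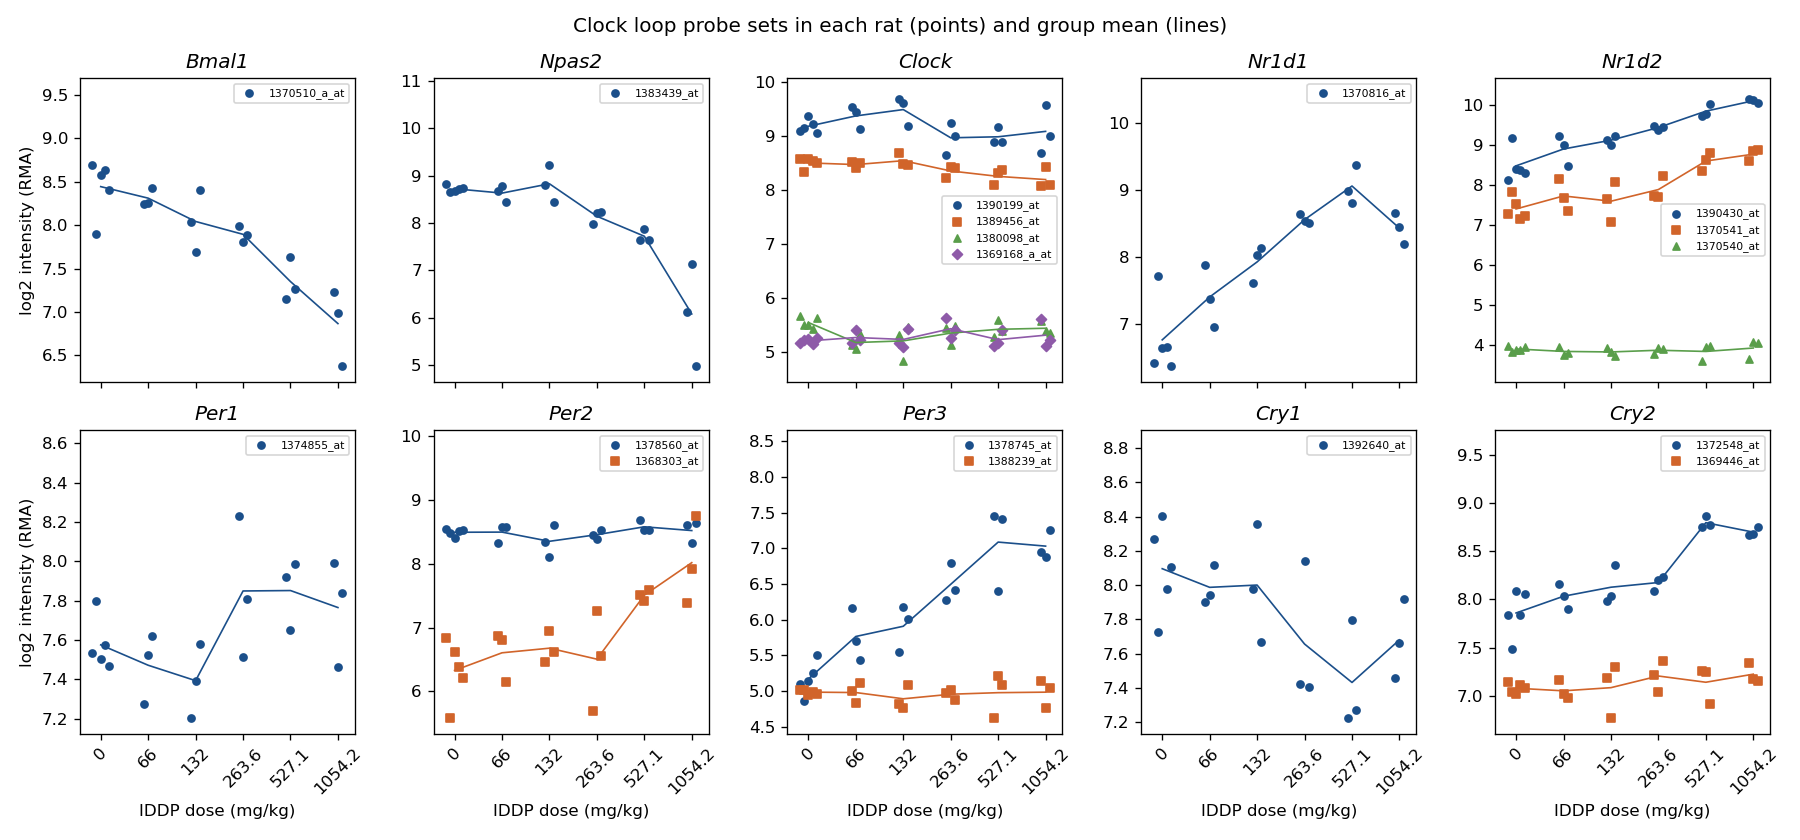
Log2 intensity of each clock loop probe set (vertical axis, RMA) in each rat (points) by IDDP dose in mg/kg, with 0 for vehicle controls and lines joining group means; each panel has its own vertical scale. Bmal1 and Npas2 are low at the right. Nr1d1, 1390430_at and 1370541_at of Nr1d2, 1368303_at of Per2, 1378745_at of Per3 and 1372548_at of Cry2 are high there, while 1370540_at, 1378560_at, 1388239_at and 1369446_at of those genes run nearly flat.

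Several measures of the samples bear on these values. Array medians lay between 6.32 and 6.41. For RNA quality, the actin and GAPDH control probe sets gave a 3′ signal above the 5′ signal, which widens with degradation, by 1.68 ± 0.11 at 1054.2 mg/kg and 1.64 ± 0.27 in controls (SD, n = 3 and 5), with the highest rats at 132 mg/kg replicate 2 (3.25) and 263.6 mg/kg replicate 2 (2.47). Markers of hepatocytes, the main liver cell, passed for 0 of 6 genes at 1054.2 mg/kg, and 0 at an unadjusted limma p under 0.05 (mean level 14.60 to 14.61, against 14.63 to 14.67 in controls). Of 8 Kupffer cell markers 6 were lower (mean level 9.64 to 9.67, against 10.0 to 10.5), of 7 endothelial markers 2 were lower (9.25 to 9.51, against 9.55 to 9.86), and of 8 stellate cell markers 4 were lower (7.53 to 7.65, against 7.70 to 8.03). Without 1054.2 mg/kg replicate 3 none of the 6 Kupffer cell markers passed, and the 2 endothelial and 4 stellate cell markers each lost their call without its replicate 2 or 3. The markers were low at lower doses as well. At 132 mg/kg 0 of 8 Kupffer cell markers passed, but 7 had an unadjusted limma p under 0.05, against 14.9% of all probe sets. Their median change was -0.59, against -0.54 at 1054.2 mg/kg. At 66 mg/kg 0 of 7 endothelial markers passed and 6 had such a p, against 3.24%. At 263.6 mg/kg mean levels of endothelial (9.34 to 9.43) and stellate cell markers (7.38 to 7.66) lay below all controls. At 1054.2 mg/kg 1 of 4 cholangiocyte markers was higher. There 0 of 5 T and NK cell, 2 B cell, 3 neutrophil and 1 erythroid markers passed in limma, with only the erythroid one at an unadjusted p under 0.05. The part of these markers in the clock values was not tested, and in bulk tissue fewer cells of a type and less RNA per cell cannot be told apart. Control replicate 2 stood apart from the other controls in several clock genes, and values without it are given below where they differ most.

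Bmal1, which encodes the activator that every form of the complex needs, measured 7.22, 6.99 and 6.38 in the 3 rats at 1054.2 mg/kg, against 8.70, 7.90, 8.58, 8.64 and 8.40 in the 5 controls. All treated rats lay below all controls, and the lowest control was replicate 2. Bmal1 fell to 2.99-fold below the control mean (log2 change -1.58 ± 0.19 SE, adjusted p = 6.25e-05). Without control replicate 2 the change was -1.71. The 3 rats at 527.1 mg/kg were at 7.15, 7.63 and 7.27, again below all controls, and the change was -1.09 ± 0.19 (adjusted p = 0.00472). The 300 bases around the Bmal1 start site are shown because REV-ERB receptors are known to act there through ROREs. The sequence is from RefSeq, build GRCr8, plus strand, chr1:176766078-176766377, and the capitals mark a RORE core, TAGGTCA, that starts 16 bases upstream of the start site.
Bmal1: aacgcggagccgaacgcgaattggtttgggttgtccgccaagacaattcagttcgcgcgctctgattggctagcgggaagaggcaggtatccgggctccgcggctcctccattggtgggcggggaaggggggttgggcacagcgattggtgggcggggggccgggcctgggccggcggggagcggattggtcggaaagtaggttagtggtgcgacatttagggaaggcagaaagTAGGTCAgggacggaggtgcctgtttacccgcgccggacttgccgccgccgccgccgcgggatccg
This RORE core, searched on both strands, was in 2.63% of 33469 rat promoters of the same length, and the variant core TGGGTCA, in 4.09% of promoters, was not in this window. Letters that match a motif do not show that a factor is bound there.

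Npas2, which encodes the partner that can stand in for CLOCK, had the widest spread of the loop at the highest dose. It measured 6.13, 7.13 and 4.99 at 1054.2 mg/kg, against 8.83, 8.65, 8.68, 8.72 and 8.74 in controls. The controls lay close together, and the treated rats were all below them but far from each other, with an SD of 1.07 at 1054.2 mg/kg against 0.07 in controls. Npas2 fell to 6.26-fold below the controls (log2 change -2.65 ± 0.28 SE, adjusted p = 1.36e-05 from limma, which pools the spread over groups). An exact permutation test over the 56 splits of these 8 rats gave p = 0.0179, two-sided, the smallest it can give. At 527.1 mg/kg the rats measured 7.64, 7.88 and 7.65, and at 263.6 mg/kg 7.98, 8.22 and 8.23. Both groups lay below every control, but with means of 7.72 and 8.15, against 8.73 in controls, they did not pass (adjusted p = 0.0771 and 0.424). The first of these passed without 1054.2 mg/kg replicate 2 or 3 (adjusted p = 0.00797 and 0.00582) and with the RNA quality covariate (0.0418). With only the dose and control arrays in the limma fit, which leaves out the wide spread at 1054.2 mg/kg, both passed (adjusted p = 0.000137 at 527.1 and 0.0237 at 263.6 mg/kg).

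Clock itself, which encodes the constitutive partner of BMAL1, was read by 4 probe sets, none of which passed at any dose. Its probe set of highest mean, 1390199_at, measured 8.69, 9.58 and 8.99 at 1054.2 mg/kg, against 9.10, 9.15, 9.37, 9.22 and 9.05 in controls. The treated rats lay on both sides of the controls, with a change of -0.09 (95% interval -0.45 to 0.26). Probe set 1389456_at measured 8.07, 8.43 and 8.08 at 1054.2 mg/kg, against 8.57, 8.32, 8.57, 8.54 and 8.49 in controls, and its change of -0.31 ± 0.10 had an adjusted p of 0.107. It passed without 1054.2 mg/kg replicate 2 (0.0417). The other 2 probe sets were dim, at control means of 5.55 and 5.21, with changes of -0.11 and 0.11.

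Nr1d1, which encodes the repressor REV-ERBalpha, measured 8.65, 8.44 and 8.19 at 1054.2 mg/kg, against 6.42, 7.72, 6.66, 6.67 and 6.39 in controls. Every treated rat was above every control, with control replicate 2 far above the other controls. The level was 3.16-fold higher (log2 change 1.66 ± 0.24 SE, adjusted p = 0.000473), and the change was 1.90 without control replicate 2. The largest change of Nr1d1 was at 527.1 mg/kg, where the 3 rats measured 8.99, 8.81 and 9.38 (change 2.29 ± 0.24, adjusted p = 2.57e-05). At 263.6 mg/kg the rats measured 8.64, 8.53 and 8.50 (change 1.79, adjusted p = 0.00124). All rats at 1054.2 mg/kg lay below all rats at 527.1 mg/kg, but the contrast between these doses, -0.63 ± 0.27, did not pass (adjusted p = 0.790). At 132 mg/kg the rats measured 7.62, 8.03 and 8.14, and the change of 1.16 did not pass (adjusted p = 0.0756). It did pass without control replicate 2 (0.00321) or without 132 mg/kg replicate 3 (0.0398). Without that 132 mg/kg rat the change was 1.05, and 1482 of all 31042 probe sets passed.

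RefSeq lists a pair of start sites for Nr1d1, and both windows are printed because E-boxes are where BMAL1 and its partner act. Both are on the minus strand of GRCr8, at chr10:84229405-84229704 and chr10:84231763-84232062. The capitals mark an E-box, CACGTG, starting 191 bases upstream in the first and an E′-box, AACGTG, starting 174 bases upstream in the second.
Nr1d1, first start site: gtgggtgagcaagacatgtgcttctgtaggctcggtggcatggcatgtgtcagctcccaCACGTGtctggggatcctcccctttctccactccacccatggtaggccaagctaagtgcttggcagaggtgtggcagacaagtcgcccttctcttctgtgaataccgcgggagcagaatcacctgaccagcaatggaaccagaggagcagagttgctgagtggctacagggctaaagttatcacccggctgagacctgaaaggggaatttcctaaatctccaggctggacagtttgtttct
Nr1d1, second start site: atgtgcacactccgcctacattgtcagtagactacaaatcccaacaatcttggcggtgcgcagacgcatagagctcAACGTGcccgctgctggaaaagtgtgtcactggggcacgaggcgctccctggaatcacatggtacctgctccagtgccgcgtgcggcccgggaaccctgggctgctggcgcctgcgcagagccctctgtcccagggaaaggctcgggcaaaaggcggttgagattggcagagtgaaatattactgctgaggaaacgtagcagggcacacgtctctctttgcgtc
The E-box was in 6.42% of the 33469 promoters and the E′-box, CACGTT or its reverse complement, in 4.83%.

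Nr1d2, which encodes REV-ERBbeta, was read by 3 probe sets. Its brightest, 1390430_at, measured 10.14, 10.14 and 10.04 at 1054.2 mg/kg, against 8.14, 9.18, 8.40, 8.38 and 8.32 in controls. The treated rats lay close together and above all controls, with control replicate 2 again the highest control. The level was 3.08-fold higher (log2 change 1.62 ± 0.18 SE, adjusted p = 2.04e-05). Probe set 1370541_at measured 8.59, 8.84 and 8.88 at 1054.2 mg/kg, against 7.29, 7.83, 7.53, 7.15 and 7.22 in controls, which was 2.58-fold higher (1.37 ± 0.21, adjusted p = 0.000618). The third, 1370540_at, was dim in every rat, with a mean of 3.94 at 1054.2 mg/kg and 3.91 in controls. The 2 brighter probe sets changed by 1.36 and 1.20 at 527.1 mg/kg (adjusted p = 0.000355 and 0.00454). At 263.6 mg/kg 1390430_at changed by 0.96 (adjusted p = 0.0199), a call that was lost without control replicates 1, 3 or 4 or without 263.6 mg/kg replicates 1 or 2 (0.0518 to 0.0742), and with only the dose and control arrays in the fit (0.0502). Nr1d2 had no match to any of the motifs searched in its window of 300 bases.

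The Per genes, which encode the repressors that feed back on BMAL1 and CLOCK, differed among themselves. Per3 by probe set 1378745_at measured 6.95, 6.88 and 7.26 at 1054.2 mg/kg, against 5.10, 4.85, 5.13, 5.24 and 5.51 in controls. No treated rat overlapped the controls. The level was 3.64-fold higher (log2 change 1.86 ± 0.22 SE, adjusted p = 4.25e-05), from a dim control mean of 5.17. At 527.1 mg/kg the rats measured 7.45, 6.41 and 7.40, or 1.92 above controls (adjusted p = 6.63e-05), and at 263.6 mg/kg 6.27, 6.80 and 6.42, or 1.33 above (adjusted p = 0.00844). The call at 263.6 mg/kg was lost without its replicate 2 (0.0726). The other Per3 probe set, 1388239_at, stayed between 4.63 and 5.22 over all 20 rats, with a change of 0.00 at 1054.2 mg/kg (95% interval -0.25 to 0.25).

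Per2 gave a different reading by probe set. By 1368303_at it measured 7.38, 7.93 and 8.74 at 1054.2 mg/kg, against 6.84, 5.59, 6.62, 6.38 and 6.21 in controls. The groups did not overlap, and the level was 3.22-fold higher (1.69 ± 0.32, adjusted p = 0.00411). Without 1054.2 mg/kg replicate 3, the highest rat, the change was 1.33 and did not pass (0.0539). The 3 rats at 527.1 mg/kg measured 7.52, 7.41 and 7.59, above all controls, with a change of 1.18 (adjusted p = 0.0641). This passed without 263.6 mg/kg replicate 1 or 2 or without 1054.2 mg/kg replicate 1 or 3 (0.0317 to 0.0472), without the 132 and 263.6 mg/kg rats of poorest RNA quality (0.0342), and with only the dose and control arrays in the fit (0.0130). By 1378560_at, the brighter probe set, Per2 measured 8.61, 8.32 and 8.63 at 1054.2 mg/kg, against 8.54, 8.49, 8.40, 8.51 and 8.53 in controls, and its change of 0.03 did not pass (95% interval -0.19 to 0.24).

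The Per2 window is printed because it held matches to 2 kinds of motif. It lies on the minus strand of GRCr8 at chr9:99496944-99497243. The capitals mark a D-box, TTATGTAA, the element of DBP and its relatives, starting 192 bases upstream, and an E′-box, CACGTT, starting 62 bases upstream.
Per2: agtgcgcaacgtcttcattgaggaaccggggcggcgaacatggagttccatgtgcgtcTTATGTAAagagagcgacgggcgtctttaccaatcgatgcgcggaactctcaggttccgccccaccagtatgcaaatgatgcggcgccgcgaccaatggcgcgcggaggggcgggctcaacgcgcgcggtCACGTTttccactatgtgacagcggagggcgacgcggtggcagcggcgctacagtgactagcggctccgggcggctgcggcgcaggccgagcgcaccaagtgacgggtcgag
The D-box TTATGTAA was in 0.893% of the 33469 promoters, and the other form searched, TTACGTAA, in 0.12%.

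Per1, the member of the family best known as an early responder to hormonal and light cues, measured 7.99, 7.46 and 7.84 at 1054.2 mg/kg, against 7.53, 7.80, 7.50, 7.57 and 7.47 in controls. The groups overlapped and the change of 0.19 ± 0.15 did not pass (adjusted p = 0.621, 95% interval -0.12 to 0.50). The rats at 263.6 mg/kg spread widely, at 8.23, 7.51 and 7.81. Neither Per1 nor Per3 had a match to the motifs in its window of 300 bases, and sequence beyond it was not searched.

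The Cry genes encode the strongest repressors of BMAL1 and CLOCK. Cry2 by probe set 1372548_at measured 8.67, 8.67 and 8.75 at 1054.2 mg/kg, against 7.83, 7.48, 8.09, 7.84 and 8.05 in controls. The treated rats lay close together above all controls, 1.79-fold higher (log2 change 0.84 ± 0.12 SE, adjusted p = 0.000281). The rats at 527.1 mg/kg measured 8.75, 8.86 and 8.77 (0.94 above controls, adjusted p = 0.000265). At the 3 lower doses Cry2 lay between 7.90 and 8.36. Its second probe set, 1369446_at, measured 7.34, 7.18 and 7.15 at 1054.2 mg/kg, against 7.14, 7.04, 7.01, 7.11 and 7.08 in controls; the groups did not overlap, but the change of 0.15 did not pass (adjusted p = 0.615). Cry1 measured 7.46, 7.66 and 7.92 at 1054.2 mg/kg, against 8.27, 7.73, 8.40, 7.98 and 8.11 in controls. Its groups overlapped, and the changes of -0.42 ± 0.19 at 1054.2 mg/kg and -0.66 at 527.1 mg/kg did not pass (adjusted p = 0.301 and 0.0860). The second passed without 263.6 mg/kg replicate 2 (0.0487), without the 132 and 263.6 mg/kg rats of poorest RNA quality (0.0278), with the RNA quality covariate (0.0307) and with quantile normalization applied again (0.0415).

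The Cry2 window, on the minus strand of GRCr8 at chr3:98860388-98860687, is printed to set beside Per2, with capitals on an E′-box, AACGTG, that starts 212 bases upstream.
Cry2: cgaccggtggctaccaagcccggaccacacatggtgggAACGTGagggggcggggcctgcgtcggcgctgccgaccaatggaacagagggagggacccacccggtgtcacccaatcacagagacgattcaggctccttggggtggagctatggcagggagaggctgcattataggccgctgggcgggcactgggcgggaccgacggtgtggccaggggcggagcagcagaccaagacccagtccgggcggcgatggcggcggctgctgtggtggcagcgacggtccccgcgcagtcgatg
In all, 9 of the 10 genes had an entry, with 11 start sites. Of those 9, 5 held none of the motifs (Npas2, Clock, Nr1d2, Per1 and Per3). The Npas2 window thus held neither RORE core searched. The search also covered the cyclic AMP element TGACGTCA, which was in 1.83% of all promoters and in none of the 11.

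The share of the loop that passed was larger at higher doses. None of the 18 probe sets passed at 66 mg/kg or 132 mg/kg, where 0.00644% and 0.0677% of all probe sets passed. At those doses 4 and 6 of the 18 had an unadjusted limma p under 0.05, against 3.24% and 14.9% of all probe sets. Without control replicate 2, Nr1d1 and Nr1d2 passed at 132 mg/kg (2 of 18), against 18 of all 31042 probe sets. Without 132 mg/kg replicate 3 Nr1d1 did (1 of 18), against 1482 of all 31042, a share of 4.77%. The Nr1d1 change was then 1.05, against 1.16 with all rats. At 263.6 mg/kg 3 of 18 passed, all higher (Nr1d1, Nr1d2 and Per3), against 0.428% of all probe sets (0.274% higher and 0.155% lower). Without 263.6 mg/kg replicate 2 Nr1d1 alone did (1 of 18). At this dose 1 of 3 neutrophil markers was higher (S100a9, 1.46, adjusted p = 0.0339), a call lost without control replicates 1, 2, 3 or 4 or its own replicates 1 or 2 (0.0538 to 0.166). The mean level of the neutrophil markers was 6.17 to 7.07 at 263.6 mg/kg, against 5.48 to 5.92 in controls, and its part in the clock values was not tested. At 527.1 mg/kg 6 of 18 passed, 5 higher and 1 lower, for 5 genes (Bmal1, Nr1d1, Nr1d2, Per3 and Cry2), against 1.68% (1.19% higher and 0.483% lower). At 1054.2 mg/kg the 8 probe sets stood for 7 genes, with Npas2 and Per2 added. The number of the 18 probe sets with every treated rat above every control was 0, 1, 3, 6 and 7 at 66, 132, 263.6, 527.1 and 1054.2 mg/kg, against 2.68%, 4.32%, 4.82%, 7.04% and 6.60% of all probe sets. The number with every treated rat below every control was 1, 0, 1, 2 and 2, against 1.91%, 3.85%, 4.18%, 4.85% and 5.81%.

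**Figure D2:**
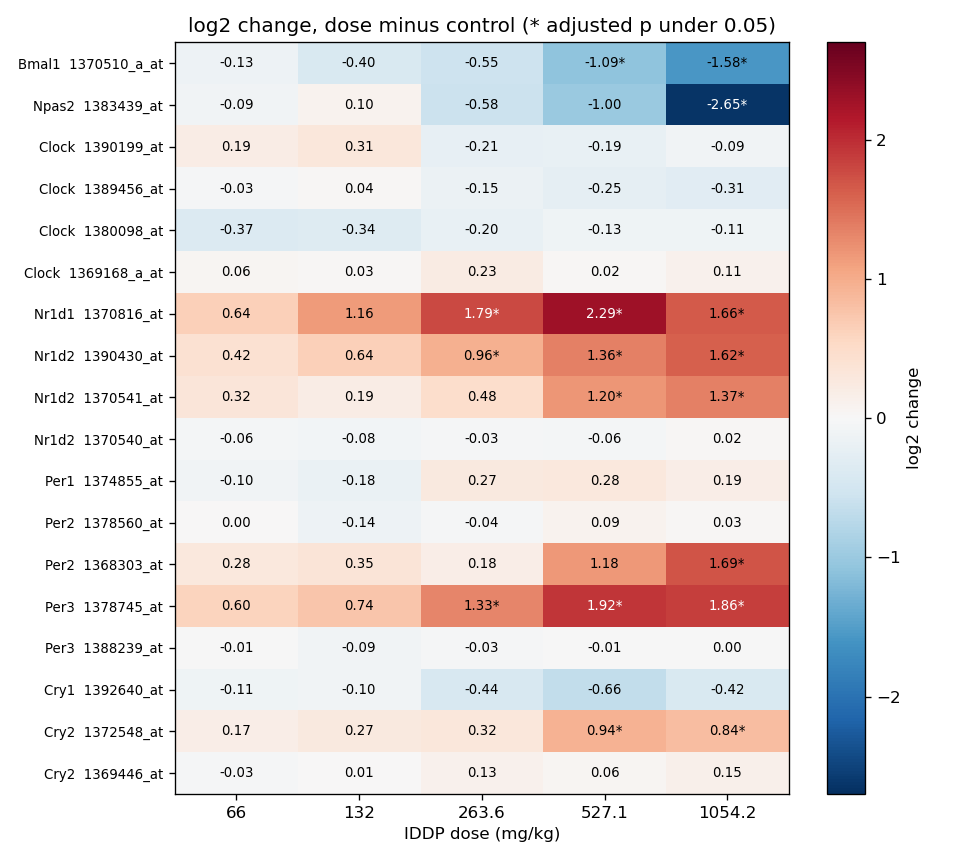
Log2 change of each clock loop probe set (rows) at each IDDP dose in mg/kg (columns) against the vehicle controls, with the colour scale centred on 0 and an asterisk where limma's adjusted p was under 0.05. The asterisks begin at 263.6 mg/kg with Nr1d1, Nr1d2 and Per3, and 8 probe sets carry one at 1054.2 mg/kg.

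Group means show the order over doses. From controls through 66, 132, 263.6, 527.1 and 1054.2 mg/kg, Bmal1 averaged 8.44, 8.31, 8.04, 7.89, 7.35 and 6.87, lower at each step. Over the same groups Nr1d2 (1390430_at) averaged 8.48, 8.90, 9.12, 9.44, 9.85 and 10.11, higher at each step. Nr1d1 averaged 6.77, 7.41, 7.93, 8.56, 9.06 and 8.43, with its highest mean at 527.1 mg/kg. Per3 (1378745_at) averaged 5.17, 5.76, 5.91, 6.49, 7.09 and 7.03, and Npas2 averaged 8.73, 8.63, 8.83, 8.15, 7.72 and 6.08. The slope on dose rank passed for 10 of 18 probe sets, 6 higher and 4 lower, for 9 genes, against 5.05% of all probe sets (2.97% higher and 2.08% lower). It was -0.30 log2 per dose step for Bmal1 (adjusted p = 6.44e-06), 0.32 for Nr1d2 (1.61e-07), 0.40 for Per3 (5.37e-07), 0.41 for Nr1d1 (5.90e-05) and 0.18 for Cry2 (4.16e-05). The slopes of Npas2 (-0.44, adjusted p = 0.000494), Per2 by 1368303_at (0.30, 0.00323) and Nr1d2 by 1370541_at (0.27, 0.000128) also passed.

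Clock (1389456_at) and Cry1 had slopes of -0.06 and -0.12 that passed narrowly (adjusted p = 0.0259 and 0.0393). The Clock slope was lost when leaving out control replicate 1, 3 or 4, or 1054.2 mg/kg replicates 1 or 3 (0.0508 to 0.0850). The Cry1 slope was lost when leaving out control replicate 1, 3, 4 or 5, 66 mg/kg replicate 3, 527.1 mg/kg replicates 1 or 3, or 1054.2 mg/kg replicate 1 (0.0569 to 0.0986).

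Among neighbouring doses, 1054.2 was tested against 527.1 mg/kg and 527.1 against 263.6 mg/kg. Between 1054.2 and 527.1 mg/kg 0 of 18 probe sets passed, against 0.0129% of all probe sets, and 3 of 18 had an unadjusted limma p under 0.05, against 6.08%. The smallest adjusted p was that of Npas2 (0.101, log2 difference -1.64 ± 0.31 SE), and it passed without 1054.2 mg/kg replicate 2 (-2.17, 0.000302). Between 527.1 and 263.6 mg/kg 0 of 18 passed, against 0% of all probe sets, and 5 of 18 had an unadjusted limma p under 0.05, against 5.83%. The smallest adjusted p there was 0.313, for Cry2 (0.62).

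Whether relatives responded unequally was tested for 6 pairs, each gene by its probe set of highest mean, on the difference within each rat at 1054.2 mg/kg and in controls. The exact permutation p was adjusted over the 6 pairs, and 4 pairs passed with the same adjusted p of 0.0268. The change of Npas2 lay below that of Clock (difference -2.55). The changes of Per1 and Per2 lay below that of Per3 (differences -1.67 and -1.84), and that of Cry1 lay below that of Cry2 (-1.25). Nr1d1 and Nr1d2 differed by 0.04 (adjusted p = 0.750), where the difference within a rat ranged from -1.85 to -1.49 at 1054.2 mg/kg and from -1.93 to -1.46 in controls. Per1 and Per2 differed by 0.16 (adjusted p = 0.193), but the exact test was of the brighter Per2 probe set. By the probe sets chosen for the largest change at this dose, Per1 minus Per2 was -1.50 and Per2 minus Per3 was -0.18, given as a description with no test. With any 1 of the 3 rats at 1054.2 mg/kg left out, 0 of the 6 pairs passed after adjustment, where the smallest p that the exact permutation test can give was 0.0476. At that p 4 pairs could not pass after adjustment over 6, so this count cannot show whether the differences rest on 1 rat. Without 1 control the smallest p of this test was 0.0286.

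Probe sets of one gene were compared in the same way over 8 pairs. In 4 pairs the changes differed (adjusted exact permutation p = 0.0357 for each). Since 1370540_at and 1388239_at were dim in all rats (3.61 to 4.09 and 4.63 to 5.22), the pairs that hold them restate the change of the brighter probe set. The 4 pairs were Nr1d2 1390430_at minus 1370540_at (1.60), Per2 1378560_at minus 1368303_at (-1.66), Per3 1378745_at minus 1388239_at (1.86) and Cry2 1372548_at minus 1369446_at (0.69). The 3 Clock pairs differed by -0.20 to 0.21 and did not pass (adjusted exact permutation p from 0.214 to 0.964), nor did the brighter pair of Nr1d2 (0.26, 0.214). Without any 1 of the 8 rats 0 of the 8 pairs passed after adjustment, where the smallest exact permutation p was 0.0286 or 0.0476. At either value 4 pairs could not pass after adjustment over 8, so this count cannot show whether the differences rest on 1 rat. The array annotation gives these probe sets the same symbol, and where each lies in its gene was not analysed here.

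Rats of one dose were compared for whether the loop moved together within groups. Each gene was read by its probe set of highest mean, which for Per2 was 1378560_at and not 1368303_at. The gene's deviation from its group mean was correlated with that of Bmal1 over the 20 rats, permuting within groups. After adjustment 0 of the 9 relations passed, nor did any at an unadjusted permutation p under 0.05. For Nr1d1 Pearson's r was -0.34 (permutation p = 0.210, adjusted p = 0.473) and Spearman's rho was -0.24 (permutation p = 0.345, adjusted p = 0.833). For Nr1d2 r was -0.40 (permutation p = 0.133, adjusted p = 0.473) and rho was -0.15 (permutation p = 0.506, adjusted p = 0.833). Without 1054.2 mg/kg replicate 3 and control replicate 2, the rats farthest out in Bmal1, these r values were -0.12 and -0.11. The largest r was that of Cry2 (0.44, permutation p = 0.133, adjusted p = 0.473; rho 0.30, permutation p = 0.265, adjusted p = 0.833; r 0.25 without those rats). Per3 had r of -0.32 (permutation p = 0.184, adjusted p = 0.473) and rho of -0.42 (permutation p = 0.0932, adjusted p = 0.833), with r of -0.54 without those rats.

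**Figure D3:**
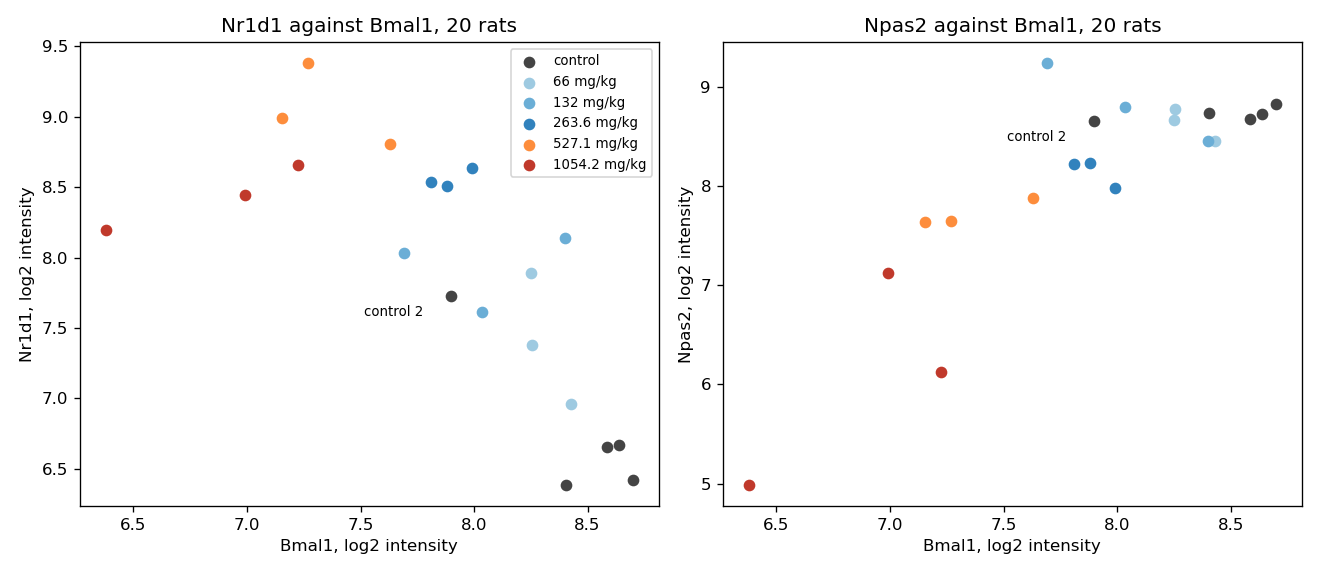
Log2 intensity of Nr1d1 (left) and Npas2 (right) against Bmal1 (horizontal axis) in each of 20 rats, coloured by IDDP dose. Rats at 527.1 and 1054.2 mg/kg are low in Bmal1 and high in Nr1d1, and control replicate 2 (control 2) lies within the range of the 132 mg/kg rats, at 7.90 for Bmal1 and 7.72 for Nr1d1.

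Other genes of the clock pathway were read in lists chosen with earlier results known, each gene by its probe set of highest mean. Among 6 bZIP and DEC factors, the output and side-loop regulators, 3 were higher, 1 was lower and 2 did not pass at 1054.2 mg/kg. Over all probe sets 1.86% were higher and 1.44% lower. At an unadjusted limma p under 0.05 there were 4 of these 6, against 15.1% of all probe sets. Their median log2 change was 0.39, against -0.01 over all probe sets. The D-box activator Dbp was 3.44 ± 0.27 above controls (adjusted p = 2.44e-07), at 9.41 ± 0.55 (SD, n = 3), against 5.96 ± 0.24 in controls (SD, n = 5). Dbp also passed at 527.1 mg/kg (3.29, adjusted p = 1.06e-06) and 263.6 mg/kg (1.39, 0.0295). Its relative Tef was 0.94 ± 0.12 higher (adjusted p = 0.000143) by 1 of its 3 probe sets. The D-box repressor Nfil3 was 0.86 lower (change -0.86 ± 0.20, adjusted p = 0.0203), at 9.23 ± 0.11, against 10.09 ± 0.42 in controls. Bhlhe41, an E-box repressor also called DEC2, was 0.46 ± 0.12 higher (adjusted p = 0.0345) from a dim level, at 5.42, against 4.96 in controls. The call of Nfil3 was lost when control replicate 4 or any 1 rat at 1054.2 mg/kg was left out (0.0537 to 0.0897). That of Bhlhe41 was lost when control replicate 1, 2, 3 or 5, or any 1 rat at 1054.2 mg/kg, was left out (0.0596 to 0.139). The dose trend passed for Dbp, Tef and Nfil3 (adjusted p = 3.13e-07, 8.35e-05 and 0.0116) and not for Bhlhe41 (0.262).

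**Figure D4:**
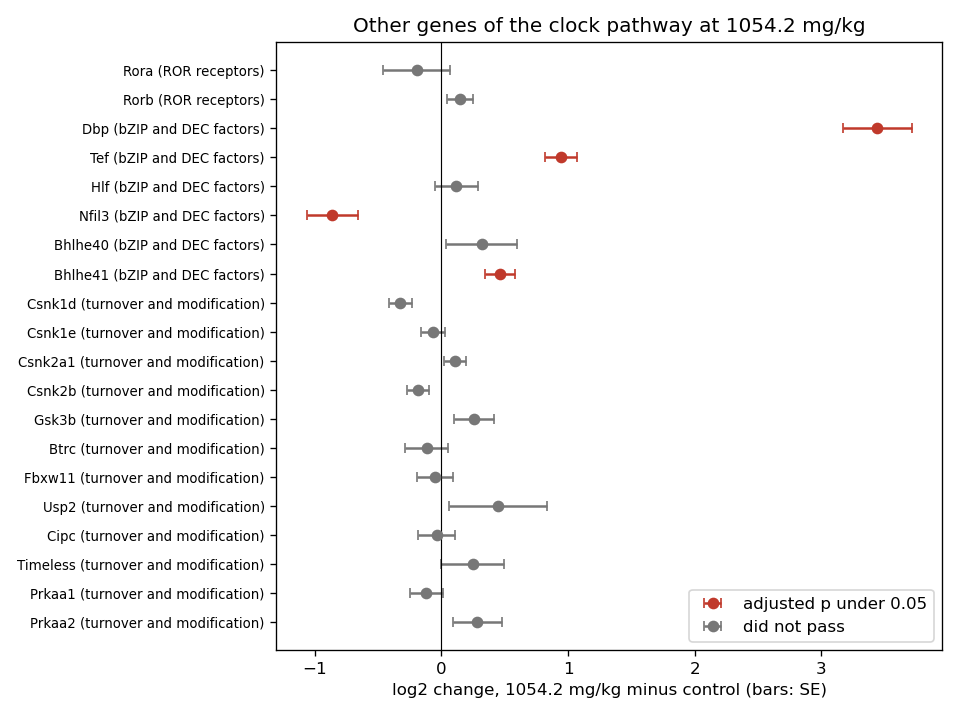
Log2 change at 1054.2 mg/kg against vehicle controls (horizontal axis, bars SE from limma) of 20 other clock pathway genes (rows, with their list), red where adjusted p was under 0.05. Dbp lies far to the right at 3.44, Tef and Bhlhe41 are higher, Nfil3 is lower, and no ROR or turnover gene passed.

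Of 2 measured ROR receptors, the activators that compete with REV-ERB at ROREs, 0 passed in limma and 0 at an unadjusted p under 0.05, with changes of -0.20 for Rora and 0.15 for Rorb. Of 12 measured genes for turnover and modification of clock proteins 0 passed in limma, with a median change of -0.04. At an unadjusted p under 0.05 there were 2 of these 12, near the 15.1% of all probe sets at this dose. The kinase gene Csnk1d, whose product phosphorylates PER, came nearest (-0.32, adjusted p = 0.0525) and had a slope that passed (adjusted p = 0.0119). Of 11 direct clock outputs in liver 2 were higher, 1 was lower and 8 did not pass (median change 0.05). Over all probe sets 1.86% were higher and 1.44% lower. The haem synthesis gene Alas1 (1.07, adjusted p = 0.00607) and the kinase gene Wee1 (0.48, 0.0103) were higher, Wee1 by 1 of its 2 probe sets. The lipid phosphatase gene Lpin1 was lower (-1.68, 0.0172). At an unadjusted limma p under 0.05 there were 4 of these 11, against 15.1% of all probe sets. Alas1 and Wee1 did not pass without 1054.2 mg/kg replicate 3 (0.0721 and 0.110), nor Lpin1 without its replicates 1 or 3.

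Genes that answer hormones or temperature, which can set the liver clock, were read beside the loop. Of 9 glucocorticoid-induced genes the metallothionein gene Mt2A was higher (1.56, adjusted p = 0.00584), the kinase gene Sgk1 was lower (-1.38, 0.0324) and 7 did not pass, with a median change of 0.27. At an unadjusted limma p under 0.05 there were 6 of these 9, against 15.1% of all probe sets at this dose. The trend passed for 2 higher and 2 lower of the 9, against 2.97% and 2.08% of all probe sets. The call of Sgk1 was lost when control replicate 2 or 3, or any 1 rat at 1054.2 mg/kg, was left out (0.0529 to 0.122). Of 6 temperature-responsive genes 0 passed in limma at 1054.2 mg/kg, with a median change of -0.15. At an unadjusted p under 0.05 there was 1 of these 6, near the 15.1% of all probe sets. The part of these cues in the clock values was not tested.

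The genes whose levels ran most like those of 2 loop members over all 20 arrays were listed as a description, since shared dose groups shape these correlations. For Bmal1 they were Tubb2a, Avpr1a, Slc45a3, Pgrmc2, Gnmt and Tp53inp2, with Pearson's r between 0.876 and 0.905. Their r with Bmal1 after group means were removed was 0.30 to 0.62. For Nr1d1 they were Pcm1, Hsd17b2, Scpep1, Cyp3a23-3a1, Stn1 and Ano10, with r between 0.844 and 0.889, and -0.18 to 0.63 after group means were removed.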

How the data were processed

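Liver RNA of 20 rats was measured on Affymetrix arrays, 1 array per rat, from 100 ng of total RNA. The authors deposited log2 intensities per probe set, normalised by RMA per the submitters' processing notes; the version is not given in the sources used here. RMA can compress large differences, and the number of arrays limits precision. Of 31099 probe sets, 57 control probe sets were left out, and no brightness filter was used. Groups came from the dose in the labels, and each replicate is a separate rat, so p-values measure spread between rats.

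All 20 arrays entered one linear model, with a mean for each dose, in limma 3.58.1 under R 4.3.3 (14 residual and 5.75 prior degrees of freedom, two-sided). Benjamini-Hochberg adjustment ran over the 31042 probe sets, with a threshold of 0.05. The trend is the slope of the log2 value on dose rank. Differences between relatives and between probe sets used exact permutation tests over 56 splits in numpy 2.4.6. Within-group correlations used 100000 permutations. Intervals are 95% intervals from the limma fit. Every probe set of the 10 genes is given. List genes were read from the probe set of highest mean, named where past the threshold at 1054.2 mg/kg (up to 8), and the 6 genes most like Bmal1 and Nr1d1 by Pearson's r were named. Rora, Rorb, Csnk1d and S100a9, outside that rule, were named after their values were seen. Alternatives were a filter on dim probe sets, quantile normalization, centred array medians, 1 probe set per gene, only the groups compared, a variance trend, a replicate block, an RNA quality covariate and each rat left out. The members, lists and tests were chosen with earlier results of these data known. The limma step was tested on simulated data. Promoters are RefSeq windows of 300 bases, 250 before and 50 after each start, on GRCr8, and motifs were searched by exact match on both strands. Cry1 had no window.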

Additional observations from a re-analysis of the deposited data

Results flagged for a closer look

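Among the 5 controls, replicate 2 lay apart from the other 4 by Dixon's test at the 95% level in Nr1d1, at 7.72 log2 against 6.39 to 6.67 in the others. It also did so in the Nr1d2 probe set 1390430_at, at 9.18 against 8.14 to 8.40. The test was run on all 18 clock loop probe sets in the controls, and chance flags about 1 in 20 groups; the probe sets come from the same rats, so these are not independent. In the same rat Bmal1 was the lowest control, at 7.90 against 8.40 to 8.70. Cry1 (7.73), Per2 by 1368303_at (5.59) and Cry2 by 1372548_at (7.48) were also the lowest of the controls there. So were Npas2 (8.65), Clock by 1389456_at (8.32), Per3 by 1378745_at (4.85) and the dim Nr1d2 probe set 1370540_at (3.84). Per1 (7.80) and Nr1d2 by 1370541_at (7.83) were the highest of the controls in this rat.

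The probe sets called at 1054.2 mg/kg numbered 8 with this rat and 8 without it. Without it the changes were -1.71 for Bmal1, 1.90 for Nr1d1, 1.80 for Nr1d2, 1.79 for Per3 and 0.74 for Cry2, and the adjusted p of Per2 by 1368303_at was 0.0116.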

How the results depend on the processing

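With 1 rat left out at a time, the number of the 18 probe sets past limma's threshold was 0 to 0 at 66 mg/kg, 0 to 2 at 132 (2 without control replicate 2, 1 without 132 mg/kg replicate 3), 1 to 3 at 263.6 (1 without its replicate 2), 6 to 8 at 527.1, 7 to 9 at 1054.2 and 8 to 10 for the trend. It was 0 to 1 between 1054.2 and 527.1 mg/kg (1 without 1054.2 mg/kg replicate 2) and 0 to 0 between 527.1 and 263.6 mg/kg. Pairs of relatives past the exact permutation threshold numbered 0 to 5 against 4, and pairs of probe sets 0 to 0 against 4, where fewer rats leave fewer splits. Where the count was 0, 4 pairs at the smallest possible p could not pass after adjustment. Without the 132 and 263.6 mg/kg rats of high 3′ minus 5′ difference, the count at 263.6 mg/kg was 1 against 3. The changes of the lost calls there were 0.98 against 0.96 for Nr1d2 and 1.18 against 1.33 for Per3, with fewer rats tested. Per1 minus Per2 was -1.50 with the probe sets of largest change, against 0.16, where another Per2 probe set, chosen for its change, was read. The other settings gave 6 (of 10, 1 probe set per gene) to 9 at 1054.2 mg/kg and 5 (of 10, or of 13 bright probe sets) to 8 at 527.1 mg/kg. Clock by 1389456_at passed at 1054.2 mg/kg with quantile normalization applied again (adjusted p = 0.0156). The trend calls of Clock and Cry1 were lost with array medians centred (0.0638 and 0.0625).

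Replicate numbers name separate rats. Rats of the same number in different groups correlated at -0.35 to 0.47 in their deviations from group means (median 0.07). Rats of different number correlated at -0.59 to 0.38 (median -0.02). These ranges overlap, and the check cannot decide whether rats of one number shared a step of handling. The labels give no pairing. With the replicate number as a block the counts were 0, 0, 2, 6 and 8 in order of dose, 8 for the trend and 0 for both contrasts between doses. Over all probe sets, the number called at 1054.2 mg/kg was 1024, with 405 to 1219 when 1 rat was left out and 614 under the block. At 132 mg/kg it was 21, with 6 to 1482 (1482 without 132 mg/kg replicate 3). At 263.6 mg/kg it was 133 (38 to 260), at 527.1 mg/kg 520 (212 to 646), and under the block 78 and 283 in that order. The trend count was 1569, with 930 under the block.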
